A study of Homo sapiens with 4 samples.

Results

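The 46 genes described here make the proteins that copy DNA (20 replication genes) and those that carry a cell through mitosis (26 mitosis genes), and they were chosen by name from these 2 programmes of the cell cycle. They are 46 of the 12728 genes tested in MDA-MB-361 cells with and without short hairpin RNAs against DCD. Each gene was read on its brightest probe set, the one with the highest mean log2 value over the 4 arrays among the probe sets annotated to that gene alone. All 46 passed the filter on low values, 19 of them have a single probe set on the array, and the 46 genes together have 78 probe sets that passed.

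MDA-MB-361 is an established human breast cancer line of luminal type with amplified HER2, and DCD encodes dermcidin, a secreted peptide precursor. The study asked which genes differ in these cells when DCD is knocked down. Total RNA was hybridized to 4 Affymetrix U133 Plus 2.0 arrays, 1 from cells carrying the pLKO vector alone and 1 from each of 3 derivatives, clone 1, clone 2 and clone 3 as labelled, in which a pLKO-puro lentivirus expresses a hairpin against a different region of the DCD transcript. All 4 cell populations carry the vector and grew in the medium recommended for the line, and no time after infection is given in the labels. The paper speaks of the derivatives both as cell pools and as clones, and each hairpin was measured once. No hairpin therefore has a replicate array, and a difference between 1 array and the pLKO array has no replicate check.

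Before dividing, a cell loads the MCM helicase onto replication origins with CDC6 and CDT1, joins GINS to it to unwind DNA, and supplies polymerases and nucleotides. In many cell types the genes for these steps are switched on by E2F transcription factors around the entry into S phase. Later, cyclin B with CDK1, the Aurora and Polo kinases and the spindle checkpoint drive and time mitosis, and most of their genes peak in G2 phase through the DREAM and MuvB complexes, B-MYB and FOXM1, which act at a short element called the cell cycle homology region (CHR) and at CCAAT boxes. In breast tumours the 2 programmes together are the usual mRNA reading of proliferation.

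The clone 3 array stood apart in RNA quality. On the actin control (ACTB), signal at the 3' end over that at the 5' end, high when RNA is degraded or incompletely copied, came to 42.6 in clone 3 against 9.67 in clone 1, 2.58 in clone 2 and 5.29 in pLKO. The GAPDH control gave 13.1 in clone 3, 2.18 in clone 1, 1.02 in clone 2 and 1.09 in pLKO. Both ratios were thus also higher in clone 1 than in pLKO. Before normalization 55.1% of probe sets in clone 3 lay under 16, the floor to which lower values were raised, against 39.3% to 43.9% on the other arrays. DCD itself was at 7 or lower on all 4 arrays, under the floor, so the arrays do not check the knockdown. All 10 luminal and HER2 markers listed, such as ERBB2, GATA3 and KRT18, were above the floor on every array, with a median normalized intensity of 2636 in clone 1, 2796 in clone 2, 858 in clone 3 and 1774 in pLKO, and 6 of the 10 were lower in clone 3 than in pLKO. KRT5 and KRT14, basal markers, were at the floor on every array, and VIM, a mesenchymal marker, was at 25.2 in clone 1, 22.5 in pLKO and the floor in clones 2 and 3. Of 7 stromal, endothelial and immune markers with a named probe set, 5 in clone 1, 6 in clone 2, 3 in clone 3 and 4 in pLKO were above it, with sums of 405, 313, 562 and 332. COL1A1 alone was at 235, 150, 429 and 178 in that order, while COL3A1, VWF, PTPRC and CD3E were at 25.1 or lower on every array. The part of RNA quality and of these markers in the differences below was not tested. Clone 3 values are given apart, except in the rules over all 3 comparisons and in the limma fit, which include that array.

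Start site sequences of 6 members are printed to show the letters of the E2F, CCAAT and CHR motifs, of which the E2F letters were more frequent among the replication genes and the CHR letters among the mitosis genes. Each sequence runs 5′ to 3′ on the gene's own strand from 250 bases before a RefSeq start site of the GRCh38.p14 assembly to 20 bases after it. Capitals mark the searched letters on either strand, which are TTCCCGC or TTGGCGC or TTCGCGC or TTGCCGC for E2F, CCAAT (or ATTGG on the other strand) for NF-Y, and TTTGAA or TTCGAA for the CHR, and neighbouring or overlapping matches run together. PLK1 (chr16:23678639-23678908, plus strand), CENPA (chr2:26785806-26786075, plus strand) and TOP2A (chr17:40417877-40418146, minus strand) are mitosis genes. MCM7 (chr7:100101378-100101647, minus strand, the first of its 3 start sites), PCNA (chr20:5126603-5126872, minus strand, the first of 2) and GINS1 (chr20:25407423-25407692, plus strand) are replication genes.
PLK1: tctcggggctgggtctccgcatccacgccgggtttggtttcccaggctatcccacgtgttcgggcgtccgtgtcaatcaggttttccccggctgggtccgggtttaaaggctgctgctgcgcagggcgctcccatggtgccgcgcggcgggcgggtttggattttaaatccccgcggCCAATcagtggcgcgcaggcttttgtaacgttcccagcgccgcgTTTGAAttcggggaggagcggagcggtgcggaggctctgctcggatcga
CENPA: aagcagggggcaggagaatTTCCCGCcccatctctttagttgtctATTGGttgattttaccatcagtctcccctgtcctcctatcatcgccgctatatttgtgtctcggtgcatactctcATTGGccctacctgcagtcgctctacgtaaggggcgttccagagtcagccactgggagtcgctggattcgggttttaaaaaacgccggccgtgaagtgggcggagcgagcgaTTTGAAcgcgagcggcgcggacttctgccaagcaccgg
TOP2A: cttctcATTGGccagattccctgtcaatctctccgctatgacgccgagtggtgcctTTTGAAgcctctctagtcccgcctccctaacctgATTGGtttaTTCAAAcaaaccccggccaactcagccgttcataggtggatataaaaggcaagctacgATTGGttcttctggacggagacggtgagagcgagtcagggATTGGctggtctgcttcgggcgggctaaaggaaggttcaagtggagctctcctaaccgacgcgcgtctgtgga
MCM7: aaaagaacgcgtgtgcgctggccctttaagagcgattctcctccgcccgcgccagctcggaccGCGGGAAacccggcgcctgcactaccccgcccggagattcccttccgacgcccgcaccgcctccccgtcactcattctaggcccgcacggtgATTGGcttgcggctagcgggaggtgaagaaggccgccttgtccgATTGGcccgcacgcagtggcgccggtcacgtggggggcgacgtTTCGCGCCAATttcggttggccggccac
PCNA: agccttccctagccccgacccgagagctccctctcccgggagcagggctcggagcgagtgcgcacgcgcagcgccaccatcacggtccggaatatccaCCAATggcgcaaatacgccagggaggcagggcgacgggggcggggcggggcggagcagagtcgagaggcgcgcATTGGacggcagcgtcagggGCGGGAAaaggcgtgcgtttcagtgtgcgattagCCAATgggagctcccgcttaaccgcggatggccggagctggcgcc
GINS1: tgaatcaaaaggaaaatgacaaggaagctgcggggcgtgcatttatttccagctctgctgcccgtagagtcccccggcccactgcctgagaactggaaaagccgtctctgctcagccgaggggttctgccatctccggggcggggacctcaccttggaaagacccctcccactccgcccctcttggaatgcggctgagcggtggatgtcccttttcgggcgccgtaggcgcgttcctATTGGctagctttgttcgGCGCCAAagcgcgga

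Of the 46 members, 37 had a start site window in the RefSeq table, and the whole 300 bases of each window were searched. E2F letters stood in 16 of 17 replication genes (94.1%), the exception being FEN1, in 5 of 20 mitosis genes (25%) and in 15.3% of the 27305 genes of the table. CHR letters stood in 2 of 17 replication genes (11.8%), MCM6 and RRM1, in 14 of 20 mitosis genes (70%) and in 19.5% of all genes. CCAAT stood in 58.8% of the replication genes, 85% of the mitosis genes and 39.7% of all genes. Among protein coding genes alone the E2F, CHR and CCAAT letters stood in 20.5%, 17.5% and 42.1%. The E2F share of the mitosis genes was thus close to that of protein coding genes. A gene with several windows counted if any of them matched. By window, E2F letters stood in 18 of 23 for the replication genes (78.3%) and in 27.3% for the mitosis genes. The CCAAT and E2F letters overlap in 187 of the 35116 windows, as at the start site of MCM7. A match of letters is a description and does not show that a factor binds there. The 14 mitosis genes with CHR letters had a median log2 difference from pLKO of 0.38 in clone 1, -0.67 in clone 2 and -2.23 in clone 3, and the 6 without had 0.33, -0.53 and -2.21. With 1 array per hairpin, that difference has no test.

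**Figure D1:**
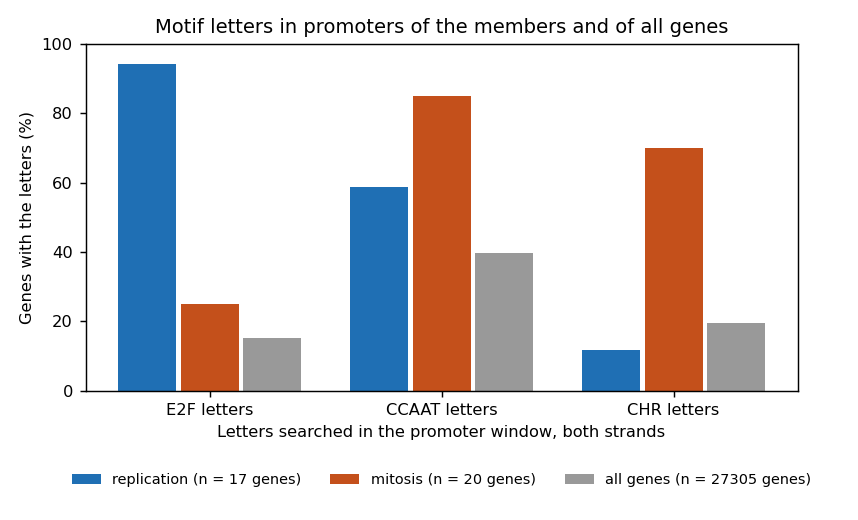
Share of genes (%, vertical axis) whose start site window holds the E2F, CCAAT or CHR letters on either strand, for 17 replication genes, 20 mitosis genes and the 27305 genes of the table. E2F letters stand in 94.1% of the replication genes and CHR letters in 70% of the mitosis genes.

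The 3 hairpin arrays did not shift the 2 programmes the same way relative to pLKO. In clone 3 all 46 genes were lower than in pLKO, with a median difference of 5.25-fold. In clone 2, 40 of 46 were lower, with a median of 1.36-fold, and in clone 1, 36 of 46 were higher, with a median of 1.30-fold, after quantile normalization, which sets the arrays to 1 common distribution. On the other 3 scalings the clone 1 medians of both classes lay under pLKO, though still above the median of all probe sets, as given below. In RNA from whole cultures, fewer cycling cells and less of each mRNA per cell cannot be told apart. The values below are normalized intensities, which compare 1 probe set between arrays and do not compare the levels of different genes. Sides of pLKO are those after quantile normalization. As deposited, 19 members that were higher in clone 1 were lower there, namely MCM2, MCM3, MCM4, RRM1, RRM2, CDT1, FEN1, POLE2, CCNB1, CDK1, BUB1B, KIF11, KIF2C, CENPA, BIRC5, TPX2, PRC1, FOXM1 and MYBL2. In clone 2, 9 that were lower were higher as deposited, namely MCM4, MCM6, PCNA, RRM1, RRM2, BUB1B, MKI67, KIF2C and FOXM1, and in clone 3 none changed side.

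**Figure D2:**
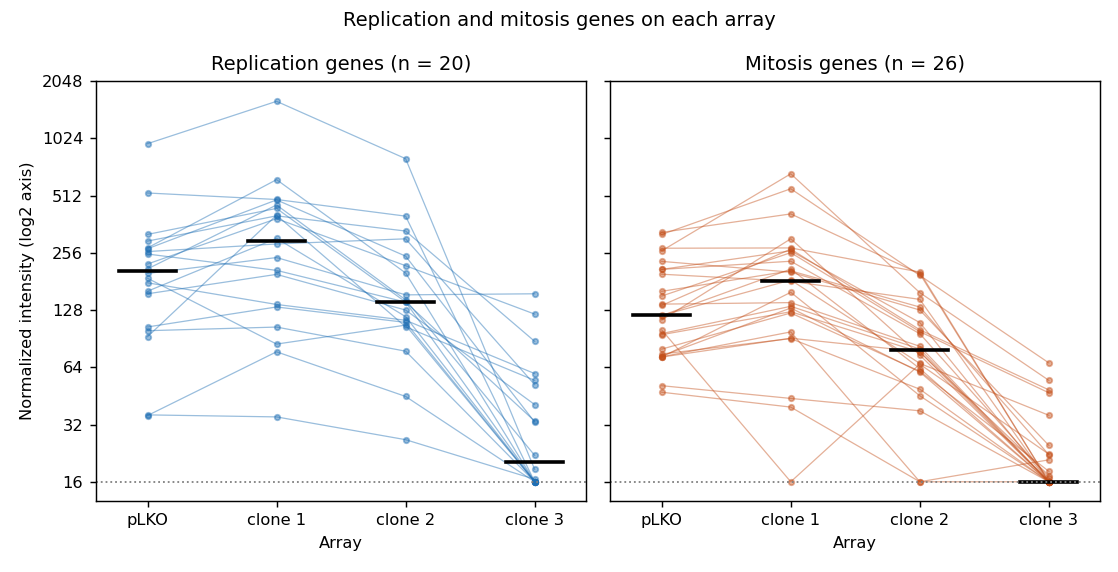
Normalized intensity (log2 axis) of each replication gene (left, 20 genes) and mitosis gene (right, 26 genes) on the 4 arrays; a line joins the values of 1 gene, black bars are class medians and the dotted line is the floor of 16. Replication medians were 205 in pLKO, 295 in clone 1, 141 in clone 2 and 20.3 in clone 3, and mitosis medians 120, 183, 78.5 and 16.

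For the replication genes the median log2 difference from pLKO was 0.40 in clone 1 (15 of 20 higher), -0.37 in clone 2 (15 of 20 lower) and -2.67 in clone 3 (20 of 20 lower). For the mitosis genes it was 0.38 in clone 1 (21 of 26 higher), -0.62 in clone 2 (25 of 26 lower) and -2.25 in clone 3 (26 of 26 lower). Over all 12728 genes tested the medians were 0.01, 0.00 and -0.11, and over the 10192 genes at or above 32 in pLKO, the level from which a gene can be 2-fold lower without reaching the floor, they were -0.06, -0.04 and -0.27. Every member was above 32 in pLKO, the lowest at 35.7. The mitosis median minus the replication median was -0.02 in clone 1, -0.25 in clone 2 and 0.42 in clone 3. The clone 2 gap kept its sign under every scaling, floor and choice of probe sets run. The clone 3 gap did not: it was -0.24 with a floor of 1 in place of 16 and -0.13 on the mean of a gene's probe sets. It was -0.43 without the cross-hybridizing probe set types, where 33 members were left. Without CCNA2, FOXM1, MYBL2 and MKI67, which also act outside mitosis or mark cycling cells in general, the mitosis medians were 0.37, -0.70 and -2.36.

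**Figure D3:**
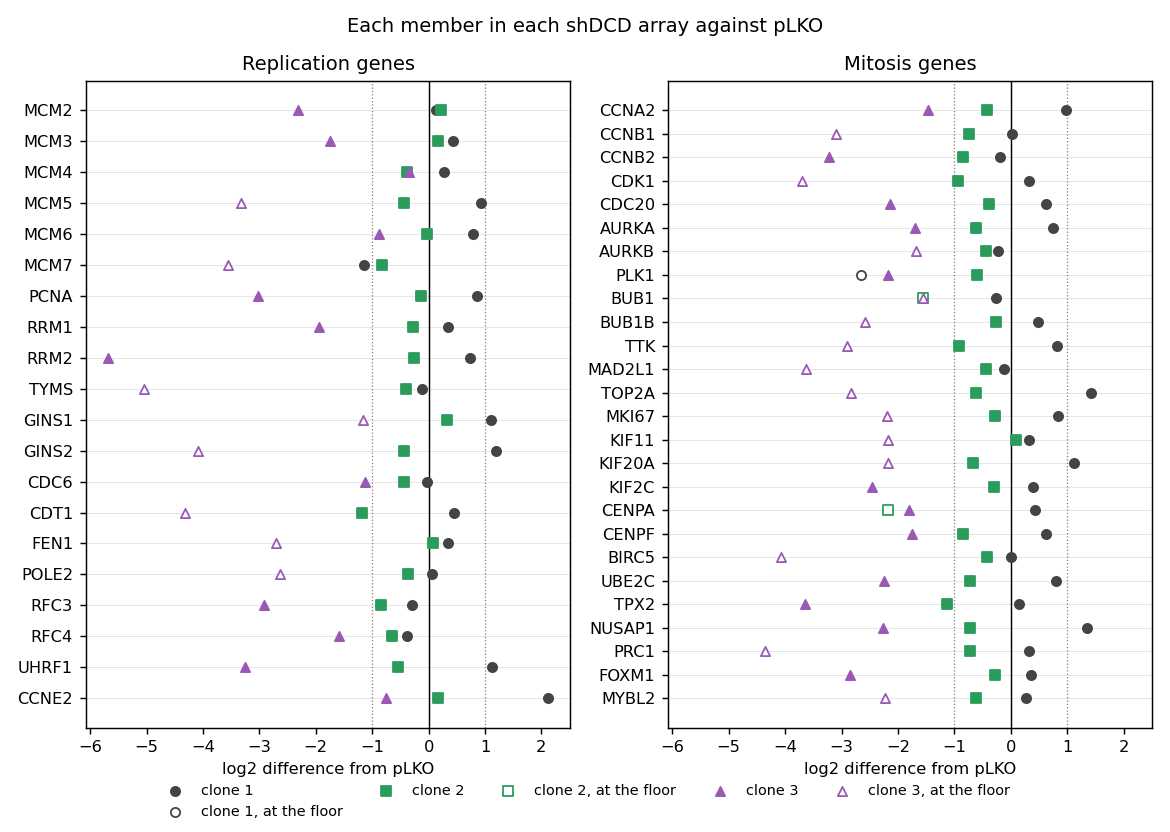
log2 difference from pLKO (horizontal axis) of each replication gene (left) and mitosis gene (right) in clone 1 (circles), clone 2 (squares) and clone 3 (triangles); open symbols are at the floor of 16, so their difference is a bound, and dotted lines mark 2-fold. All 46 triangles lie left of 0, while 36 of 46 circles lie right of it.

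By a 2-fold difference from pLKO, 2 members were lower in clone 1, MCM7 and PLK1, beside 9.09% of all genes tested and 11.4% of those at or above 32 in pLKO. The 7 members that were at least 2-fold higher in clone 1 were GINS1, GINS2, UHRF1, CCNE2, TOP2A, KIF20A and NUSAP1. They are 15.2% of the members, beside 7.2% of genes tested and 4.34% of those at or above 32 in pLKO. In clone 2 the 4 members CDT1, BUB1, CENPA and TPX2 were at least 2-fold lower, 8.7% of the members beside 4.34% of genes tested and 5.42% of those at or above 32 in pLKO. No member was 2-fold higher in clone 2, where 3.33% of genes tested and 1.74% of those at or above 32 in pLKO were. In clone 3, 43 of the 46 were at least 2-fold lower, 93.5% of the members beside 22.4% of genes tested and 27.9% of those at or above 32 in pLKO, the exceptions being MCM4, MCM6 and CCNE2. No member was 2-fold higher there, against 14.9% of genes tested.

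No difference was shared by all 3 hairpins at the 3-fold size that the study used. By that rule 0 members were lower and 0 higher in all 3 comparisons, beside 0.181% and 0.0157% of genes tested. At 1.5-fold, 2 of the 46 members, MCM7 and PLK1, were lower in all 3, a share near the 3.3% of genes tested. No member was higher, beside 2.56%. For these rules no share over genes at or above 32 in pLKO was computed. The 3 comparisons share the pLKO array. limma, fitted to the 3 shDCD arrays against the lone pLKO array across 27307 probe sets, called 0 members and 0% of all probe sets at an adjusted p under 0.05 (the smallest adjusted p of a member was 0.9998), and 0 members passed an unadjusted p under 0.05, beside 0.754% of probe sets. It assumes that the pLKO array varies like the shDCD arrays, which carry different hairpins. On simulated data with the spread of the shDCD arrays the same fit recovered 0% of probe sets changed by 4-fold or 16-fold. The lack of calls therefore cannot show that no member differs. PLK1 and MCM7 are given here because they passed the 1.5-fold rule, so their values are no further support for it. For PLK1, lower on 3 of 3 shDCD arrays, the mean log2 difference was -1.81 over the 3 arrays and -1.63 over clones 1 and 2. For MCM7, also lower on 3 of 3, it was -1.84 and -0.98. PLK1 was at the floor in clone 1 and MCM7 in clone 3. An exact permutation test of 3 arrays against 1 cannot give a p under 0.25.

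Among the 6 subunits of the MCM helicase, MCM7 was the one under pLKO in clone 1 after quantile normalization, while as deposited MCM2, MCM3 and MCM4 lay under it too. Its normalized intensity was 84.8 in clone 1, 107 in clone 2, 16 in clone 3, the floor, and 188 in pLKO, so it was 2.22-fold lower in clone 1, 1.76-fold lower in clone 2 and at least 11.8-fold lower in clone 3. Its second probe set differed from pLKO by -2.65, -0.58 and -2.65 on the log2 scale in the same order, so both lay under pLKO on all 3 arrays. Both are of the type that can cross-hybridize, so MCM7 had no value without those types. MCM2 was at 285, 303, 51.9 and 260 in clone 1, clone 2, clone 3 and pLKO, the order kept below. MCM4 was at 242, 154, 156 and 199, and MCM6 at 387, 219, 122 and 223. These 2 subunits and CCNE2 were the only members less than 2-fold lower in clone 3, but of the other MCM4 probe sets there, 2 differed by -1.81 and -1.78 and 1 by 0.40 on the log2 scale. MCM3 was 1.36-fold higher in clone 1, 1.13-fold higher in clone 2 and 3.36-fold lower in clone 3, and MCM5 was 1.90-fold higher, 1.36-fold lower and at least 10.05-fold lower.

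The factors that load and start the helicase were led in clone 1 by the GINS subunits. GINS1 was at 77.2, 44.96, 16 and 35.7, that is 2.16-fold higher in clone 1 and at least 2.23-fold lower in clone 3, on its single probe set. GINS2 was at 621, 200, 16 and 272, 2.28-fold higher in clone 1, 1.36-fold lower in clone 2 and at least 17.0-fold lower in clone 3, while its dim second probe set lay 0.13 above pLKO on the log2 scale in clone 3. CDT1, the licensing factor that is destroyed once S phase begins, was at 438, 141, 16 and 320, 2.27-fold lower in clone 2 and 1.37-fold higher in clone 1. Its other probe set had the same signs on all 3 arrays, at 0.35, -0.80 and -2.35 on the log2 scale. CDC6, the ATPase that loads MCM with CDT1, was dim everywhere, from 16.5 in clone 3 to 36.0 in pLKO.

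Of the 5 fork proteins grouped here (PCNA, RFC3, RFC4, POLE2 and FEN1), RFC3 and RFC4 of the clamp loader were the ones under pLKO on all 3 arrays after quantile normalization. Of the loader subunits outside the members, RFC1 was under it on all 3. RFC2 was above it in clone 1, by 0.08 on the log2 scale, and RFC5 in clones 1 and 2, by 0.02 and 0.21. Fork genes outside the loader, such as POLD2 and RPA1, were also under pLKO on all 3. RFC3 was at 207, 141, 33.4 and 252, 1.22-fold, 1.79-fold and 7.56-fold lower, and RFC4 was at 137, 113, 59.3 and 178, 1.30-fold, 1.57-fold and 3.00-fold lower. A dimmer RFC3 probe set went the other way in clones 1 and 2, at 0.27 and 1.16 on the log2 scale, and another was under pLKO on all 3 arrays. PCNA, the sliding clamp that RFC loads, was at 486, 246, 33.0 and 269, which is 1.81-fold higher in clone 1, 1.09-fold lower in clone 2 and 8.14-fold lower in clone 3. POLE2, a subunit of the leading strand polymerase, was at 104, 77.8, 16 and 99.7. FEN1, the flap nuclease of the lagging strand, was within 1.27-fold of pLKO in clones 1 and 2 and at least 6.52-fold lower in clone 3.

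The largest clone 3 differences of any members were those of 2 nucleotide enzymes, RRM2 and TYMS. RRM2, the regulated subunit of ribonucleotide reductase, was at 1602, 800, 18.6 and 959, 51.5-fold lower in clone 3, and its log2 difference of -5.69 was the lowest of the 12728 genes tested on that array, though a gene at the floor has only a bound. Its second probe set differed by -5.25 on the log2 scale. TYMS, thymidylate synthase, was at 488, 399, 16 and 528, at least 33.0-fold lower in clone 3, and its second tested probe set differed by -1.56, -0.64 and -2.65 on the log2 scale. On their brightest probe sets both were within 1.67-fold of pLKO in clones 1 and 2. RRM1, the large and more constant subunit, was at 197, 128, 40.8 and 156, 3.82-fold lower in clone 3, and its second probe set was 0.08 above pLKO there on the log2 scale, so the RRM1 difference in clone 3 depends on the probe set.

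Cyclin E2 and UHRF1 complete the replication genes. CCNE2, which activates CDK2 at the start of S phase, was at 403, 105, 54.6 and 92.7, 4.35-fold higher in clone 1, the largest difference upward of any member, and 1.70-fold lower in clone 3. Its second probe set differed from pLKO by -0.25 in clone 1 and -0.998 in clone 3 on the log2 scale, so the clone 1 value rests on 1 probe set. UHRF1, which brings DNA methylation to newly copied DNA, was at 457, 145, 22.05 and 211, 2.17-fold higher in clone 1, 1.45-fold lower in clone 2 and 9.55-fold lower in clone 3.

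The cyclins of mitosis and CDK1 were all under pLKO in clone 2. CCNB1 was at 140, 82.5, 16 and 137, within 1.02-fold of pLKO in clone 1, 1.67-fold lower in clone 2 and at least 8.59-fold lower in clone 3. CCNB2 was at 202, 128, 24.9 and 231, and CDK1, the kinase they activate, at 262, 110, 16 and 209, 1.90-fold lower in clone 2 and at least 13.1-fold lower in clone 3. The other 2 tested CDK1 probe sets differed by -0.69 and -0.65 on the log2 scale in clone 2. CCNA2, the cyclin of S and G2 phase, was 1.98-fold higher in clone 1, 1.34-fold lower in clone 2 and 2.78-fold lower in clone 3. Its second tested probe set differed by 0.11, -0.39 and -2.43 on the log2 scale, so the size of the clone 1 value rests on 1 probe set.

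PLK1, the Polo kinase of mitotic entry and spindle assembly, was the member furthest under pLKO in clone 1. It was at 16, the floor, in clone 1, 66.4 in clone 2, 22.3 in clone 3 and 101 in pLKO, at least 6.29-fold lower in clone 1, 1.51-fold lower in clone 2 and 4.50-fold lower in clone 3. As deposited its intensities were 16, 102, 15.5 and 127. The array has 1 named PLK1 probe set, so no second reading was made. Clones 1 and 3, where PLK1 was furthest under pLKO, also had higher ACTB and GAPDH ratios than pLKO, and their part was not tested. No other mitotic kinase listed here was more than 1.20-fold under pLKO in clone 1. AURKA, the spindle pole kinase, was at 256, 98.5, 47.0 and 152, and TTK, the checkpoint kinase MPS1, at 210, 63.0, 16 and 120, both above pLKO in clone 1 by 1.69-fold and 1.76-fold and below it in clone 2 by 1.54-fold and 1.90-fold. The second tested AURKA probe set differed by 0.11 in clone 1, -0.06 in clone 2 and -2.28 in clone 3 on the log2 scale, so the AURKA values in clones 1 and 2 rest on 1 probe set. BUB1, a kinetochore checkpoint kinase, was at 39.5, 16, 16 and 47.3, at least 2.96-fold lower in clones 2 and 3. AURKB, the kinase of the chromosomal passenger complex, was within 1.36-fold of pLKO in clones 1 and 2 and at least 3.20-fold lower in clone 3, and BUB1B, the checkpoint protein BUBR1, was within 1.39-fold and at least 6.02-fold lower.

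Of the genes that hold back or start anaphase, UBE2C and CDC20 lay above pLKO in clone 1 and MAD2L1 did not. UBE2C, which hands ubiquitin to the anaphase-promoting complex, was at 556, 195, 67.5 and 320, 1.74-fold higher in clone 1, 1.64-fold lower in clone 2 and 4.73-fold lower in clone 3. CDC20, the activator of that complex, was 1.55-fold higher, 1.31-fold lower and 4.39-fold lower. MAD2L1, which inhibits CDC20 until chromosomes are attached, was 1.09-fold lower in clone 1, 1.36-fold lower in clone 2 and at least 12.3-fold lower in clone 3. Its other 2 tested probe sets differed from pLKO by -1.51 and -1.04 in clone 1 and by -0.31 and -0.15 in clone 2 on the log2 scale, so the order of these 2 arrays depends on the probe set.

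At the centromere, CENPA had the largest clone 2 difference of any member. This histone H3 variant of the centromere was at 98.2, 16, 20.9 and 72.7, at least 4.54-fold lower in clone 2 and 3.48-fold lower in clone 3, on a single probe set of the type that can cross-hybridize. CENPF, a kinetochore protein of G2 phase, was at 184, 67.1, 35.8 and 120, 1.53-fold higher in clone 1 and 1.79-fold lower in clone 2. BIRC5, survivin of the passenger complex, was level with pLKO in clone 1, 1.33-fold lower in clone 2 and at least 16.9-fold lower in clone 3. Its other 3 tested probe sets differed from pLKO by 0.14 to 0.52 in clone 1, by -0.09 to 0.18 in clone 2, where 2 of the 3 were higher, and by -1.50 to -2.62 in clone 3 on the log2 scale.

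The 6 spindle motors and microtubule proteins were above pLKO in clone 1 after quantile normalization, 2 of them (KIF20A and NUSAP1) also as deposited, and all but KIF11 were below it in clone 2, all but KIF11 and KIF2C as deposited. NUSAP1, a microtubule binder around chromosomes, was at 666, 158, 54.6 and 262, 2.54-fold higher in clone 1, 1.66-fold lower in clone 2 and 4.80-fold lower in clone 3, and its second probe set gave 1.20, -0.67 and -2.09 on the log2 scale. KIF20A, a kinesin of cytokinesis, was at 159, 45.3, 16 and 72.5, 2.19-fold higher in clone 1 and 1.60-fold lower in clone 2. TPX2, which activates AURKA on the spindle, was at 231, 96.1, 16.8 and 209, 2.18-fold lower in clone 2 and 12.5-fold lower in clone 3. KIF2C, a microtubule-depolymerizing kinesin, was at 125, 77.0, 17.3 and 94.96. KIF11, the motor that separates spindle poles, was 1.26-fold higher, 1.07-fold higher and at least 4.53-fold lower, and PRC1, which bundles the central spindle, was 1.25-fold higher, 1.65-fold lower and at least 20.5-fold lower, the largest clone 3 difference of a mitosis gene.

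On their brightest probe sets TOP2A, MKI67 and 2 transcription factors of the G2 programme ran from clone 1 at the top through pLKO and clone 2 to clone 3 after quantile normalization (in clone 1 FOXM1 and MYBL2 were below pLKO as deposited). TOP2A, the topoisomerase that untangles sister chromatids, was at 303, 74.2, 16 and 113, 2.67-fold higher in clone 1, 1.53-fold lower in clone 2 and at least 7.09-fold lower in clone 3, with its second probe set at 0.82, -0.83 and -2.72 on the log2 scale. MKI67, the Ki-67 antigen of cycling cells, was at 131, 60.4, 16 and 73.4, and its 3 other tested probe sets lay on both sides of pLKO in clones 1 and 2 and under it in clone 3. FOXM1 was at 206, 132.7, 22.2 and 161 and MYBL2, which encodes B-MYB, at 90.6, 49.1, 16 and 75.2. Neither differed from pLKO by more than 1.53-fold in clone 1 or 2, while they were 7.23-fold and at least 4.70-fold lower in clone 3.

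Over all 78 member probe sets the class pattern of the brightest ones held in clones 2 and 3, with 60 of 78 and 75 of 78 lower than pLKO, and 57 of 78 were higher in clone 1. Of the 23 members with several tested probe sets, 8 had probe sets on both sides of pLKO in clone 1 (CCNB1, CCNE2, CDC6, CDK1, MCM4, MKI67, RFC3 and RRM2), 8 in clone 2 (BIRC5, CDC6, FEN1, MCM4, MCM5, MKI67, RFC3 and RRM1) and 3 in clone 3 (GINS2, MCM4 and RRM1). All 43 mitosis probe sets were lower in clone 3.

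The direction in clone 1 depended on how the arrays were scaled. As deposited, the median log2 difference of all probe sets tested from pLKO was -0.38 in clone 1, 0.36 in clone 2 and -0.91 in clone 3, which quantile normalization takes away. As deposited, 29 of the 46 members were under pLKO in clone 1, 31 in clone 2 and 46 in clone 3. Relative to the median of all probe sets, the replication median in clone 1 was 0.40 higher after quantile normalization and between 0.16 and 0.17 higher with median centring, with spiked controls and as deposited, and the mitosis median was 0.38 and between 0.20 and 0.25 higher. In clone 2, relative to all probe sets, the replication median was between -0.34 and -0.37 and the mitosis median between -0.62 and -0.68 over the 4 scalings. The count of members at least 2-fold higher in clone 1 was 7 after quantile normalization and 1 on each of the other 3.

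**Figure D4:**
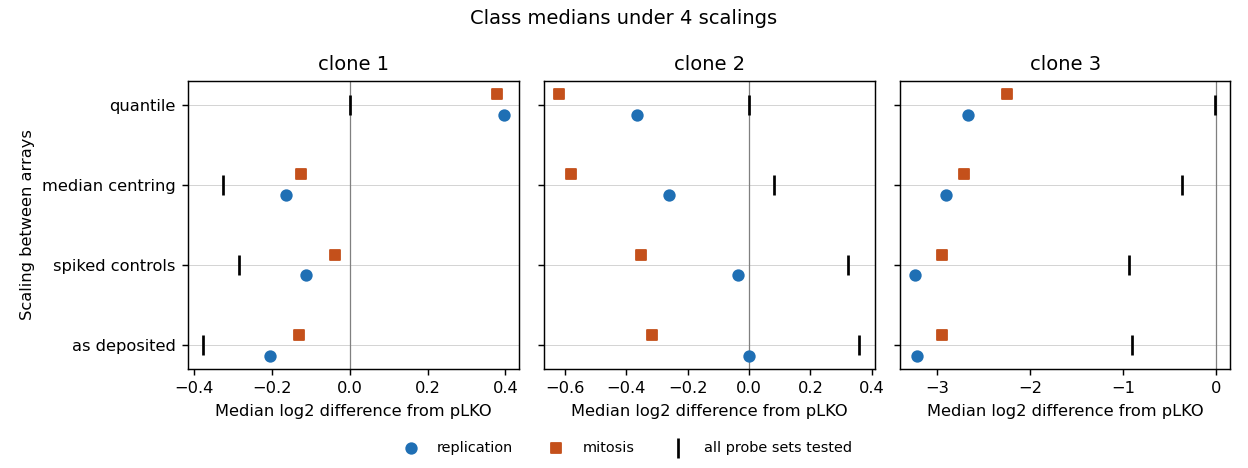
Median log2 difference from pLKO (horizontal axes, 1 panel per shDCD array with its own range) of the replication genes (circles), the mitosis genes (squares) and all probe sets tested (bars) under 4 scalings between arrays (vertical axis). In clone 1 both classes change sides of 0 with the scaling but stay above the bar, and in clones 2 and 3 both stay below it.

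In clone 3, 22 of the 46 members were at the floor, 8 replication and 14 mitosis genes, so their differences are bounds. With a floor of 1 in place of 16 the clone 3 median was -2.62 for the replication genes and -2.86 for the mitosis genes. As deposited, the 46 intensities in clone 3 ran from 1.6 to 82.8 with a median of 11.7, against 39.9 to 1345 with a median of 201 in pLKO, and every member was lower. The ACTB and GAPDH ratios that marked this RNA stand with these values, and no other array was made from clone 3 cells.

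Other genes of the same programmes, listed by function, had medians in the same order of arrays, closer to 0 than those of the members in clones 2 and 3. In clone 3 the floor bounds many of these differences. NUF2, HMMR and CENPK, for example, were at 16 there and at 44.9, 46.8 and 37.6 in pLKO. The part of the floor in the clone 3 gap between these lists and the members was not tested. Of 46 other replication genes, 42 were tested, with medians of 0.18 in clone 1, -0.25 in clone 2 and -1.42 in clone 3 on the log2 scale, and 1, 1 and 26 of them were at least 2-fold lower and 4, 0 and 0 at least 2-fold higher. Of 60 other mitosis genes, 56 were tested, with medians of 0.55, -0.37 and -1.48, and 2, 5 and 38 were at least 2-fold lower and 12, 0 and 0 higher. Of 28 regulators, such as the E2F factors, RB1 and the CDK inhibitors, 26 were tested, with medians of 0.36, -0.18 and -0.79, and 1, 1 and 8 were at least 2-fold lower and 2, 0 and 1 higher. Of all genes tested, 9.09%, 4.34% and 22.4% were at least 2-fold lower and 7.2%, 3.33% and 14.9% higher. The lower shares in clone 3 were 61.9%, 67.9% and 30.8% of the lists in turn. Of genes at or above 32 in pLKO, 27.9% were lower there, near the share of the regulators. None of these lists has a test, and the members had been named with earlier results of these data in view.

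**Figure D5:**
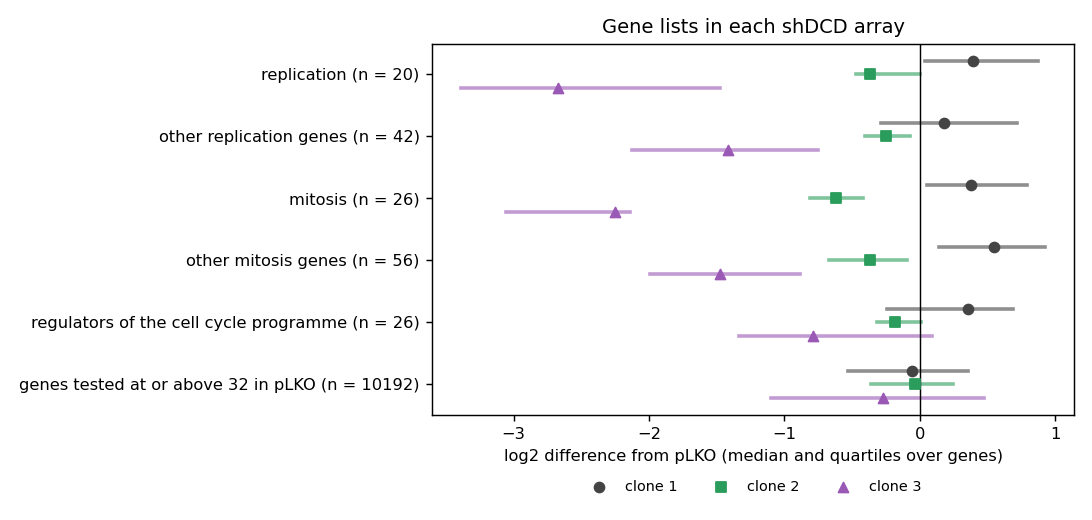
Median (symbols) and quartiles (lines) over genes of the log2 difference from pLKO (horizontal axis) for the replication and mitosis members, the other genes of each programme, their regulators and the 10192 genes at or above 32 in pLKO, in clone 1 (circles), clone 2 (squares) and clone 3 (triangles). In clone 3 the medians of the members, -2.67 and -2.25, lie below those of the other replication genes, -1.42, and other mitosis genes, -1.48. The floor bounds many of the clone 3 differences.

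Among the other replication genes, CHAF1A, the large subunit of the chromatin assembly factor, was 2.66-fold higher in clone 1, and GINS3, another GINS subunit, was 2.51-fold higher there. RPA3, the smallest subunit of the single-strand binding protein, was 2.01-fold lower in clone 1, 1.53-fold lower in clone 2 and at least 14.6-fold lower in clone 3, and ORC2 of the origin recognition complex was 1.59-fold, 1.30-fold and 1.16-fold lower. Of the other mitosis genes, CKS1B, which binds CDK1, was at 116, 95.6, 25.9 and 261, lower than pLKO on all 3 arrays by 2.25-fold, 2.73-fold and 10.1-fold. CENPE, the kinetochore kinesin, was 2.65-fold lower in clone 1 and 1.21-fold lower in clone 2, while KIF15 and CENPM, at 53.7 and 47.8 in clone 1 and at or near the floor on the other 3 arrays, passed the filter on low values only through clone 1, where they are 2 of the 12 counted as higher. Of the regulators, CDC25A, the phosphatase that activates CDK2, was 2.97-fold higher in clone 1, 1.19-fold higher in clone 2 and 1.81-fold lower in clone 3. TFDP2, a partner of E2F factors, was 1.53-fold higher, 1.74-fold higher and 1.86-fold lower, and E2F5 was 1.16-fold lower, at least 2.17-fold lower and 1.91-fold lower. CDKN2D, an inhibitor of CDK4 and CDK6, was at least 2.03-fold, 1.22-fold and 1.89-fold lower.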

How the data were processed

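Total RNA of MDA-MB-361 cells was measured on 4 Affymetrix U133 Plus 2.0 arrays, 1 of pLKO and 1 of each of 3 shDCD derivatives, grouped by the sample titles. The deposited values are linear intensities, 1 per probe set and array, of 54675 probe sets. The paper names dChip for the array analysis, while which program made the deposited intensities is not stated in those sources. Because their medians ran from 13.4 in clone 3 to 24.7 in clone 2, the arrays were treated as not yet scaled to each other.

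Intensities of 0 were set to 0.1, arrays were quantile normalized, values under 16 were raised to 16, and log2 was taken. After 62 control probe sets were left out, the brighter 27307 by mean log2 value entered the tests. Gene names came from the platform annotation, where 41097 probe sets have 1 gene, 1801 several and 11777 were not listed, and 41043 were matched by gene identifier to a GRCh38.p14 gene table. Sequences are from RefSeq start site windows of that assembly. The members and lists were chosen with earlier results of these data known.

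Each shDCD array was set against pLKO, with no test, and limma 3.58.1 in R 4.3.3 was fitted to 3 shDCD arrays against 1 pLKO array, two-sided, with Benjamini-Hochberg adjustment over all probe sets tested. On simulated data of 27307 probe sets it recovered 100% of 200 changed by 4-fold at an SD of 0.1 and 0% of those changed by 4-fold or 16-fold with the spread of the shDCD arrays. Values on every array are given for the 6 members of each class with the largest and the 3 with the smallest mean difference over clones 1 and 2, for those at least 1.5-fold from pLKO on opposite sides in clones 1 and 2, and for MKI67, PCNA, TOP2A, MCM2, CCNB1, CDK1, FOXM1 and MYBL2; those of CDT1, GINS2, MCM7's second probe set, RRM2, TYMS and UHRF1 were added after their values were seen. Up to 4 genes of each other list are named by the same mean difference. The share of genes at or above 32 in pLKO was added after seeing the data. Alternatives were other scalings, floors, filters, fold sizes, choices of probe set and each shDCD array left out. The number of arrays limits the precision. Python 3.11.15 and matplotlib 3.10.9 were used.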

Additional observations from a re-analysis of the deposited data

How the results depend on the processing

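With 1 array per hairpin and 1 of pLKO, no spread within a hairpin was measured, and p-values measure only the spread between the 3 shDCD arrays. No paired analysis was possible because pLKO has 1 array. The signs of both class medians in clone 3 and of the mitosis median in clone 2 were kept under every alternative run. The clone 1 medians changed sign on 3 scalings, the replication genes to -0.16 with median centring, -0.21 as deposited and -0.11 with spiked controls, and the mitosis genes to -0.13, -0.13 and -0.039. The clone 2 replication median was 0.00071 as deposited. In clone 3 the replication median was -1.52 with a floor of 64, -2.04 on the mean of all probe sets and -1.80 without cross-hybridizing probe set types, and the mitosis median was -2.95 as deposited and with spiked controls, -2.86 with a floor of 1 and -0.90 with a floor of 64. A floor of 64 limits how far a gene can lie under its pLKO level, and the mitosis median in pLKO was 120. The clone 3 medians and the counts of 2-fold lower members at that floor are therefore bounds. The clone 3 mitosis minus replication median reversed to -0.24 with a floor of 1, -0.13 on the mean of all probe sets and -0.43 without cross-hybridizing types. The cause was not tested. Members 2-fold lower in clone 1 were 1 with a floor of 64, with an upper quartile filter or at 3-fold. Members 2-fold higher in clone 1 were 1 with median centring, as deposited, with spiked controls and at 3-fold, 4 on the mean of all probe sets and 18 at 1.5-fold. Beside those 18 of 46, 2437 of the 12728 genes tested and 1438 of the 10192 at or above 32 in pLKO were 1.5-fold higher. Members 2-fold lower in clone 2 were 2 as deposited, with spiked controls, a floor of 64, an upper quartile filter or no cross-hybridizing types, 1 at 3-fold and 20 at 1.5-fold. Beside those 20 of 46, 1687 of the 12728 genes tested and 1463 of the 10192 at or above 32 in pLKO were 1.5-fold lower. Shares over all genes were not computed at 3-fold on single arrays or under the other alternatives. The upper quartile filter left 39 members and the choice without cross-hybridizing types left 33. Medians and counts under these 2 alternatives are over fewer genes. Members 2-fold lower in clone 3 were 25 with a floor of 64. Members 3-fold lower in all comparisons were 0, between 0 and 2 when 1 shDCD array was left out, with 2 without clone 1 and 1 without clone 2, and 2 at 1.5-fold. limma called 0 members in every fit. At the spread of the shDCD arrays the main fit recovered 0% of simulated 16-fold changes, so this cannot show that no member differs. Over all probe sets limma made calls only with a floor of 64 and with no filter, most of them lower. Those fits took in 54613 probe sets, also those at the floor on every array, against 27307 in the main fit. The part of the floor in those calls was not tested. Without clone 2, the unadjusted limma p of PLK1 was 0.02528 and its adjusted p 0.9221.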
